A study of Mus musculus with 3 samples.

Results

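The GATA transcription factor family comprises the 6 genes Gata1, Gata2, Gata3, Gata4, Gata5 and Gata6, which were selected by gene symbol alone from the 31054 features counted in each library. All 6 members were detected. Single-cell RNA sequencing was performed on 3 individual wild-type (WT) male mouse embryos of the C57BL/6 x 129 SvEv background at embryonic day 8, labelled with 0 to 2 somites, when the heart fields, the first blood and vessels and the gut endoderm are forming. Each embryo was dissociated and counted as a separate library, so the embryo is the replicate (n = 3). No embryo carried a mutation, transgene or treatment, and the study made these libraries to find the cells of the node, or left-right organizer. Although the labels name whole embryos, the study's methods state that extraembryonic tissue was removed for genotyping, so the amount of yolk sac left on each embryo is not known.

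GATA factors bind the DNA motif after which they are named through a pair of zinc fingers. Gata1, Gata2 and Gata3 are the members best known from blood: Gata2 acts in blood-forming progenitors and endothelium, Gata1 drives the red cell programme and takes over sites bound by Gata2 as erythroid cells mature, and Gata3 is a T cell factor that also acts in surface ectoderm and trophoblast. Gata4, Gata5 and Gata6 act in heart mesoderm and endoderm. The Friend of GATA cofactors Zfpm1 and Zfpm2 bind the N-terminal finger of blood and heart members, respectively.

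Lineages were set by marker genes that include no GATA member. UMIs are unique molecular identifiers, each counting 1 captured transcript. For each of 13 marker lists, a cell's score was the mean over the markers of the log of 1 plus the marker's UMIs per 10000 UMIs. A cell was put in a class when its score reached a gate, with at least 3 markers detected, and when it passed no other list. Multiples of a gate below are multiples of this log score and not of marker UMIs. The classes are named "like" a lineage because they are ranges of a marker score, not annotated types. After quality control 5795, 7956 and 7844 cells of embryos 1, 2 and 3 remained, with 191843539, 144790573 and 165506028 UMIs. Embryo 1 stood apart: it had a median of 27635 UMIs per cell against 14615 and 16332.5 in embryos 2 and 3, no erythroid-like cell against 721 and 165, and 275 visceral endoderm-like cells against 1187 and 956. Pairs of libraries shared between 18 and 22 cell barcodes. A further 6986 cells passed no list and 1908 passed several. The gates cut continuous scores, with 55 cells within 10% above the erythroid gate and 65 within 10% below it, 37 and 75 for the cardiac gate, 39 and 57 for the endothelium gate, and 85 and 236 for the surface ectoderm gate. When cells were also clustered, the GATA genes were left out but the markers were not. Of the erythroid-like, cardiac-like and endothelium-like cells, 100%, 98.1% and 99.1% fell in clusters named by the same lists. For surface ectoderm-like, neural plate-like and allantois-like cells these shares were 74.9%, 70.7% and 68.5%. Because the same markers served both, this overlap is not independent of the gates. The cardiac-named cluster held 1431 cells, of which 422 were cardiac-like.

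On the GRCm38 (mm10) assembly the members lie on different chromosomes apart from Gata3 and Gata5. Gata1 (ENSMUSG00000031162) spans chrX:7959260-7978071 on the minus strand, Gata2 (ENSMUSG00000015053) chr6:88193891-88207032 on the plus strand, and Gata4 (ENSMUSG00000021944) chr14:63198922-63271692 on the minus strand. Gata3 (ENSMUSG00000015619, chr2:9857078-9890034) and Gata5 (ENSMUSG00000015627, chr2:180325133-180334699) both lie on the minus strand of chromosome 2. Gata5 overlaps the antisense gene Gata5os (chr2:180332857-180340732, plus strand), to which 16, 15 and 18 UMIs were assigned over all cells of embryos 1, 2 and 3, against 1885, 1712 and 1843 for Gata5. Whether counting used strand is not given in the sources used here, and without strand the reads of the overlap could not be told apart. The overlap covers the 5′ end of each gene, whereas these counts are of transcript 3′ ends.

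The upstream sequences of Gata1 and Gata2 are shown because these 2 members had opposite orders of level in gated erythroid-like and endothelium-like cells, as described below. Each sequence is the 250 bases before the RefSeq start site (GRCm38.p6), 5′ to 3′ on the gene's own strand, with the letters CACCC, which Klf-type factors such as Klf1 are known to bind, in capitals.
Gata1, chrX:7967911-7968160, minus strand: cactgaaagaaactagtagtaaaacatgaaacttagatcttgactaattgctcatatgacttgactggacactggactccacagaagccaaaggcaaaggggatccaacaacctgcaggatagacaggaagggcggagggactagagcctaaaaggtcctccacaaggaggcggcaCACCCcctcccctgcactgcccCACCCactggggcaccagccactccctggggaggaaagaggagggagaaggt
Gata2, chr6:88193641-88193890, plus strand: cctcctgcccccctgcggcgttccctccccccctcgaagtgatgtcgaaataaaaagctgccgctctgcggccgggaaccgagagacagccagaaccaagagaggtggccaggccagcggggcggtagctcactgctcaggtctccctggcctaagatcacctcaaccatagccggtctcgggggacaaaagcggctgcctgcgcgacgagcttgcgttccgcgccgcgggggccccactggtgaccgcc
The Gata1 window lies inside the annotated gene, upstream of its RefSeq start, overlaps no exon and has a GC content of 54.0%, and the Gata2 window lies just before the annotated gene and has a GC content of 67.2%. The Gata1 window held 2 CACCC matches and the Gata2 window 0. GATA-type letters were searched on both strands, first as AGATAA and with another first base as TGATAA, then with another last base as AGATAG and with both changed as TGATAG, and neither window held any. Of 32851 mouse windows of this length, 26.5% held at least 1 of the GATA-type letters and 52.0% held CACCC on either strand. The windows of a second Gata2 start (chr6:88198414-88198663), of Gata3 (chr2:9878601-9878850) and of Gata5 (chr2:180334680-180334929) likewise held 0 GATA-type matches, with 1, 3 and 1 CACCC matches. These matches describe letters in the windows and are not bound sites.

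Each GATA member had its highest level in 1 or a few lineages. Levels are CPM, the UMIs of a gene per 1000000 UMIs of its class in an embryo. These counts are of transcript 3′ ends and are not per length, so levels were compared within a gene and not between genes. Over all cells, Gata1 had 42, 2253 and 1287 UMIs in embryos 1, 2 and 3, Gata2 1100, 910 and 1424, Gata3 1804, 973 and 1223, Gata4 2453, 2467 and 2669, and Gata6 10180, 6649 and 8581. The low Gata1 total of embryo 1 stands beside its lack of erythroid-like cells. Fewer cells of a type and less RNA per cell cannot be told apart in these totals, whereas the values below are per class. Gata6 was detected in 39.5% of cells and Gata1 in 6.70%.

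**Figure D1:**
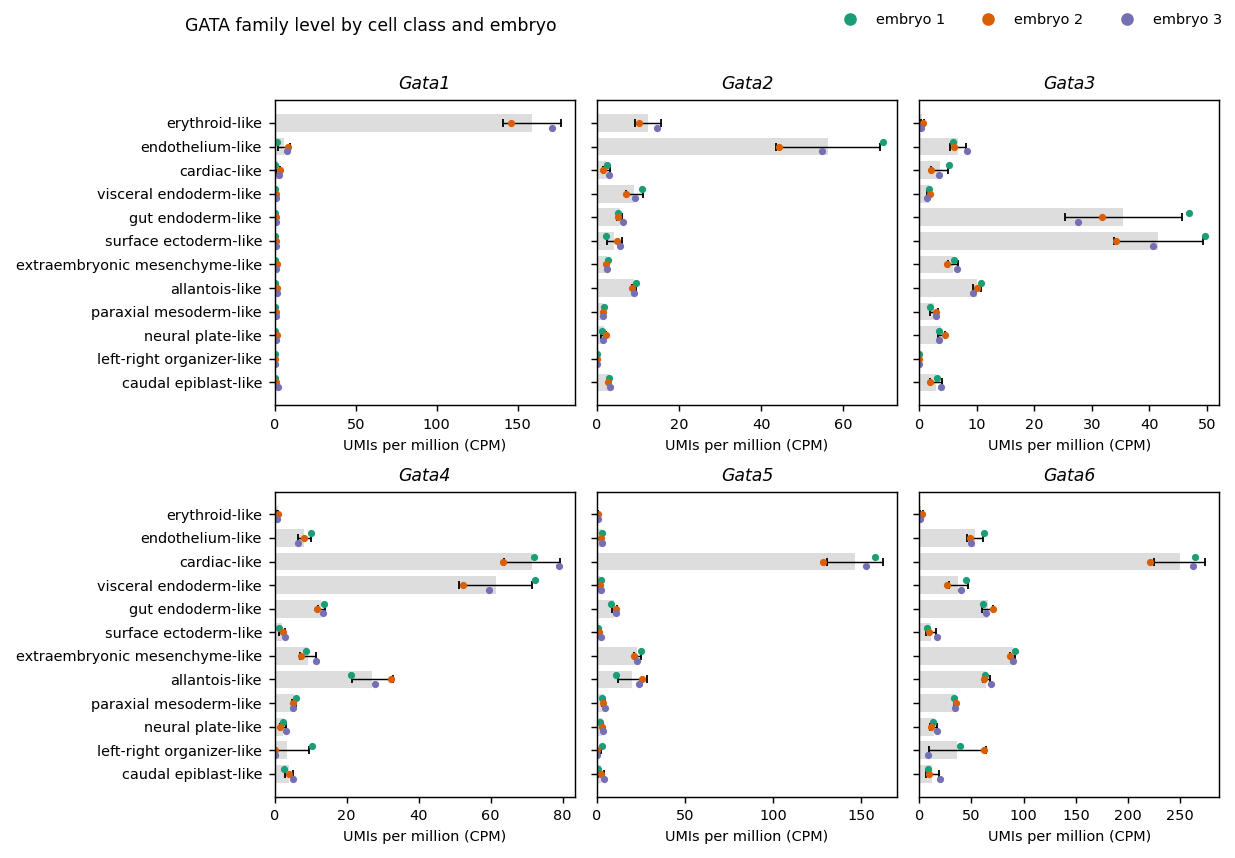
Level of each GATA member in 12 lineage classes. Each panel is 1 gene, with CPM on its own linear axis from 0. Bars are the mean over embryos, error bars the SD and dots the single embryos (3, or 2 for erythroid-like cells). Gata1 stands highest in erythroid-like cells, Gata2 in endothelium-like cells, Gata3 in surface ectoderm-like and gut endoderm-like cells, and Gata4, Gata5 and Gata6 in cardiac-like cells, joined for Gata4 by visceral endoderm-like cells.

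Among blood and vessel cells, Gata1 and Gata2 were highest in neighbouring classes. Gata1 had 146 and 171 CPM in the erythroid-like cells of embryos 2 and 3 (159 ± 17.8, SD, n = 2) and was detected in 87.9% and 92.7% of them. In endothelium-like cells its level was 1.21, 8.01 and 7.65 CPM in embryos 1, 2 and 3, and every other class had a mean of 1.92 CPM or less. The erythroid-like values lie above those of every other class without overlap, while the endothelium-like range overlaps that of cardiac-like cells (0.301, 2.97 and 2.5 CPM). In neural plate-like cells, which should lack Gata1, it was detected in 1.63%, 2.01% and 2.39% of cells. Their median depth was 21912 UMIs per cell, against 15254 in erythroid-like and 15676 in endothelium-like cells. Of endothelium-like cells 2.91%, 7.86% and 7.14% held a Gata1 UMI, of which the first is near the neural plate shares. Whether shares of this size are background was not tested.

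Gata2 had 69.6, 44.3 and 54.9 CPM in endothelium-like cells (56.3 ± 12.7, SD, n = 3), where 76.7%, 51.1% and 54.2% of cells held at least 1 UMI. After each cell was thinned to 5000 UMIs, to set the embryos at 1 depth, these shares were 28.2%, 21.8% and 24.5%. The next class was erythroid-like cells, with 10.2 and 14.6 CPM in embryos 2 and 3. Visceral endoderm-like cells had 11, 6.95 and 9.24 CPM and allantois-like cells 9.62, 8.56 and 8.97 CPM, ranges that overlap each other. The endothelium-like values lie above all of these in every embryo.

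The erythroid and endothelium classes were compared on counts summed per embryo with edgeR's quasi-likelihood test across 14401 genes, with Benjamini-Hochberg adjustment over all of them. Gata1 was higher in erythroid-like cells (log2 fold change 5.13, SE 0.45, adjusted p = 2.55e-11) and Gata2 lower (log2 fold change -1.98, SE 0.24, adjusted p = 1.21e-08). All 6 members passed, against 50.8% of all genes tested, 23.0% higher and 27.8% lower. The other 4 were lower in erythroid-like cells, with log2 fold changes of -3.11 for Gata3, -2.84 for Gata4, -1.97 for Gata5 and -4.01 for Gata6. Gata5 had only 8 UMIs in erythroid-like cells and its call was lost with thinning (adjusted p = 0.0664). Leaving out embryo 2 or embryo 3 leaves a single erythroid-like sum, so those fits cannot test whether a call holds between embryos. The call for Gata2 was lost when clusters took the place of gates (log2 fold change -0.37, adjusted p = 0.255), and 424 cells of the erythroid-named cluster that passed no list had 40.5 and 77.3 CPM of Gata2 in embryos 2 and 3. All classes entered a common fit without an embryo term, so the p-values rest on a spread between sums that is pooled over classes. Sums of the same embryo were treated as independent, and erythroid-like sums came from embryos 2 and 3 only (n = 2).

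Below the erythroid gate, Gata2 stood higher than above it in both embryos with such cells. The following ranges of the erythroid marker score, among cells that reached no other list's gate, were set after the values were seen and carry no test. In cells at 0.25 to 0.5 of the gate (46 cells of embryo 2 and 82 of embryo 3), Gata2 had 36.8 and 64.8 CPM and Gata1 73.6 and 127 CPM. Neither gene was found in 17 of the 46 and 7 of the 82 cells, at median depths of 12213 and 15973.5 UMIs. Whether cells of other lineages are among them was not tested. At 0.5 to 1 of the gate, Gata2 had 38.0 and 63.4 CPM, and Gata1 had 151 and 167 CPM. In both of these ranges Gata2 stood above the endothelium-like cells of the same embryo in embryo 3 and below them in embryo 2. Gata2 then stood at 16.4 and 15.9 CPM between 1 and 1.5 times the gate and at 8.71 and 13.3 CPM between 1.5 and 2 times, while Gata1 had 153 and 171 CPM and then 144 and 168 CPM. Past 2 times the gate, where only embryo 2 had at least 10 cells (208), Gata2 had 5.10 CPM and Gata1 140 CPM. Both embryos thus show the same order, with Gata2 lowest in the cells of highest erythroid score and Gata1 near one level from 0.5 of the gate upwards. Klf1, the erythroid Krüppel-like factor, had 30.2 and 56.1 CPM in the lowest of these ranges and 159 and 149 CPM between 1.5 and 2 times the gate. Runx1, a factor of early blood formation, showed no such order, with 148 to 177 CPM over the ranges of embryo 2 and 181 to 221 CPM over those of embryo 3.

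**Figure D2:**
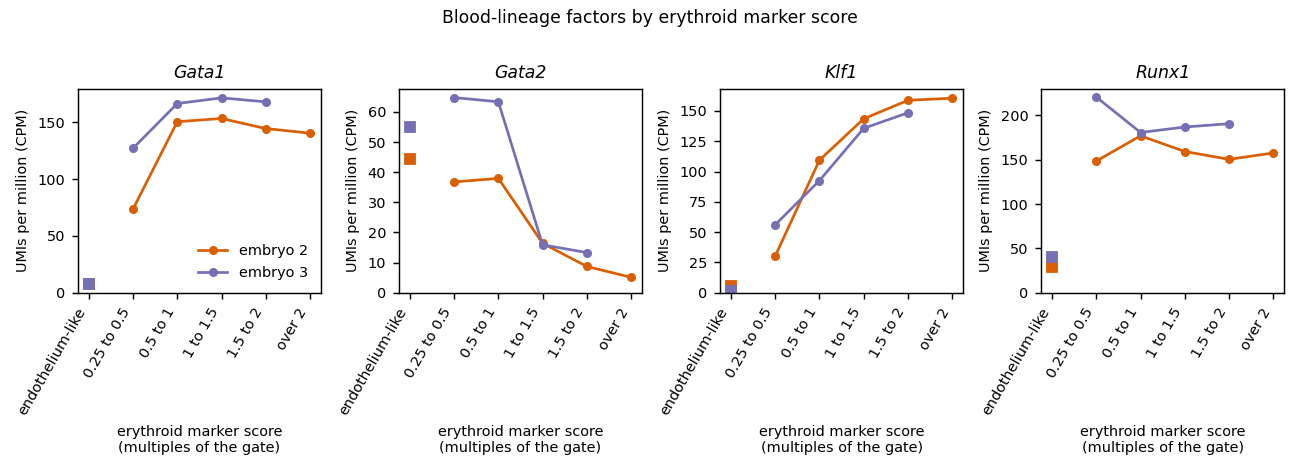
Gata1, Gata2, Klf1 and Runx1 along the erythroid marker score. The horizontal axis gives ranges of the score as multiples of the gate, the vertical axis CPM on a linear scale, lines join the values of embryos 2 and 3, and squares give their endothelium-like cells. Gata2 is at 36.8 and 64.8 CPM in the lowest range and at 8.71 and 13.3 CPM between 1.5 and 2 times the gate, whereas Gata1 stays between 140 and 171 CPM from 0.5 of the gate upwards.

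Single cells holding UMIs of both Gata1 and Gata2, counted without thinning, were a smaller share above the gate than below it in both embryos. They made up 32.6% (15 of 46) and 41 of 82 (50%) of the cells at 0.25 to 0.5 of the gate in embryos 2 and 3. Between 1.5 and 2 times the gate they made up 9.32% (26 of 279) and 17.9% (10 of 56). The product of the 2 genes' own shares gives 10.4 and 39.5 cells for the first of these ranges, so that embryo 2 stood above it there, and 26.1 and 10.2 cells for the other. At 0.5 to 1 of the gate, 42 of 144 (29.2%) and 63 of 117 (53.8%) cells held both, against 40.8 and 61.5 from the product. Among endothelium-like cells, 9 of 229 (3.93%) and 23 of 378 (6.08%) held both, against 9.20 and 14.6 cells from the product.

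Of 12 blood partners of GATA factors, 7 were higher and 2 lower in erythroid-like than in endothelium-like cells, beside 23.0% and 27.8% of all genes. Their median log2 fold change was 1.14 against -0.09 over all genes. The erythroid factors Klf1 (log2 fold change 6.52, adjusted p = 2.4e-13), Nfe2 (5.11) and Gfi1b (3.44) and the erythropoietin receptor Epor (4.28) led the first group. The genes that were lower, named after their values were seen, were Lyl1 (-0.95), which encodes a partner of Lmo2, and the progenitor receptor gene Kit (-0.60). Lmo2, the bridging protein of GATA complexes, had 452 ± 8.60 CPM in erythroid-like and 449 ± 11 CPM in endothelium-like cells, and Tal1, its DNA-binding partner, had 136 ± 8.28 and 205 ± 31.4 CPM. Neither of them passed the test.

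Against extraembryonic mesenchyme-like cells, 4 of 6 members passed in endothelium-like cells, beside 34.2% of all genes in either direction, 17.3% higher and 16.9% lower. Gata2, at 2.72, 2.19 and 2.40 CPM in the mesenchyme, was higher in endothelium (log2 fold change 4.55, SE 0.25, adjusted p = 1.78e-16). Gata5 (log2 fold change -3.01, adjusted p = 4.15e-09) and Gata6 (-0.72, adjusted p = 0.0073) were lower. Gata1 passed (log2 fold change 2.75, SE 0.77, adjusted p = 0.0053), although the embryos' values overlap between the classes. The filter on low counts ran over all classes together, so Gata1 could pass it through the erythroid-like sums, which are not compared here. The Gata1 call was lost with DESeq2 (adjusted p = 0.109) and without embryo 2 (0.0794) or embryo 3 (0.193). The call for Gata6 was lost without embryo 2 (adjusted p = 0.0674) and with clusters (0.133). For Gata3 the log2 fold change was 0.22 (95% interval -0.31 to 0.76) and for Gata4 -0.16 (-0.67 to 0.34). Of the 12 blood partners, 11 were higher in endothelium, with a median log2 fold change of 3.1. Tal1 stood at 205 CPM against 1.89 and Lmo2 at 449 against 5.50. Spi1, a myeloid factor, had 101 UMIs in endothelium-like cells and 0 in the mesenchyme, and Gfi1b had 99 and 1. This comparison and the one with erythroid-like cells use the same endothelium sums.

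In surface ectoderm-like cells, the precursors of epidermis, Gata3 was the member with the clearest difference from neural plate. Gata3 had 49.7, 34.3 and 40.6 CPM in surface ectoderm-like cells (41.5 ± 7.74, SD, n = 3), where it was detected in 64.9%, 36.2% and 49.3% of cells (22.9%, 14.7% and 19.4% after thinning). It had 3.48, 4.52 and 3.48 CPM in neural plate-like cells. The groups do not overlap and the difference passed (log2 fold change 3.48, SE 0.21, adjusted p = 3.46e-14). Gata2 was also higher, at 2.32, 4.96 and 5.54 CPM against 1.13, 2.31 and 1.57 (log2 fold change 1.39, SE 0.31, adjusted p = 0.00135), with groups that just clear each other. Without embryo 3 this call was lost (log2 fold change 1.08, adjusted p = 0.128). These were 2 of 6 members, beside 16.2% of all genes in either direction, 9.44% higher and 6.78% lower.

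The other members did not pass between surface ectoderm and neural plate, with log2 fold changes of -0.78 for Gata1, -0.22 for Gata4, -0.94 for Gata5 and -0.32 for Gata6. Without a filter on low counts Gata5 passed (adjusted p = 0.0325). With clusters in place of gates, Gata6 was higher in the surface ectoderm cluster (log2 fold change 1.56, adjusted p = 3.35e-05). Of the gated surface ectoderm-like cells, 74.9% fell in that cluster. All 4 tested ectoderm partners were higher in surface ectoderm-like cells, beside 9.44% of all genes: Dlx3 (log2 fold change 3.62), Msx2 (2.90), Tfap2c (2.82) and Klf5 (2.49), with a median of 2.86. A further listed partner, Trp63, had too few UMIs to be tested.

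Gata3 had a second high class in gut endoderm-like cells, with 46.9, 31.8 and 27.6 CPM (35.5 ± 10.1, SD, n = 3), a range that overlaps that of surface ectoderm. Gut endoderm-like cells held 21.6% and surface ectoderm-like cells 19.5% of all Gata3 UMIs. The allantois followed at 10.8, 10.1 and 9.36 CPM and the endothelium at 5.90, 6.00 and 8.32 CPM.

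In cardiac-like cells, which were gated on sarcomere genes and Smarcd3, Gata4, Gata5 and Gata6 had their highest mean levels. Gata4 had 72.0, 63.3 and 79.0 CPM in embryos 1, 2 and 3 (71.4 ± 7.88, SD, n = 3) and was detected in 86.6%, 57.3% and 79.0% of cells (28.6%, 26.4% and 36.2% after thinning). Gata5 had 158, 129 and 153 CPM (147 ± 15.8), and with clusters in place of gates its mean was 92.5 CPM. Gata6 (ENSMUSG00000005836, chr18:11052064-11085635, plus strand) had 264, 221 and 263 CPM (249 ± 24.3). In paraxial mesoderm-like cells, the precursors of somites, Gata4 stood at 5.39 ± 0.47 CPM, Gata5 at 3.74 ± 0.75 CPM and Gata6 at 34.2 ± 0.55 CPM. The cardiac-like values lie above the paraxial values in every embryo. Embryo 2 had the lowest cardiac-like value of each of these genes. In erythroid-like cells, which should lack them, Gata4, Gata5 and Gata6 had means of 0.831, 0.611 and 2.10 CPM.

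Cardiac-like against paraxial mesoderm-like cells, 3 of 6 members were higher, beside 9.40% of all genes in that direction, 8.26% in the other and 17.7% in either. The log2 fold changes were 3.74 for Gata4 (SE 0.21, adjusted p = 9.34e-16), 5.38 for Gata5 (SE 0.27, adjusted p = 5.42e-17) and 2.91 for Gata6 (SE 0.22, adjusted p = 6.65e-13). Gata2 and Gata3 had log2 fold changes of 0.52 and 0.61 and did not pass, although Gata3 did with a stricter gate (1.34, adjusted p = 0.0148). Gata1 had a log2 fold change of 2.42 (adjusted p = 0.199), and with the embryo as a block 2.14 (adjusted p = 0.00915), on cardiac-like levels of 2.97 CPM or less. It also passed without embryo 1 (adjusted p = 0.0106). Here and against gut endoderm below, Gata1 could likewise pass the filter on low counts through the erythroid-like sums. All 8 tested heart partners were higher, with a median log2 fold change of 4.86, led by the coactivator Myocd (6.14) and the heart factors Tbx5 (5.80), Nkx2-5 (5.48) and Tbx20 (5.07). A further listed partner, Nppa, which encodes an atrial peptide, had too few UMIs to be tested.

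Against gut endoderm-like cells, 5 of 6 members passed, beside 35.2% of all genes in either direction, 15.9% higher and 19.3% lower. Gata4 (log2 fold change 2.52, adjusted p = 2.28e-12), Gata5 (3.99, adjusted p = 6.39e-15) and Gata6 (1.99, adjusted p = 1.32e-09) were higher in cardiac-like cells. Gata3 was lower (-3.26, adjusted p = 2.34e-11), as was Gata2 (-1.23, adjusted p = 0.0139). The call for Gata2 was lost without embryo 2 (adjusted p = 0.124) or embryo 3 (0.0597), with a looser gate (0.169) and with clusters (0.335). Gata1 did not pass (log2 fold change 2.05, adjusted p = 0.218), and with the embryo as a block it did (1.81, adjusted p = 0.0196), as it did without embryo 1 (adjusted p = 0.0236). The 8 tested heart partners were all higher (median log2 fold change 5.98), with Tbx5 at 8.49, Mef2c at 7.82, Myocd at 6.88 and Zfpm2, the heart cofactor of GATA proteins, at 6.29. The cardiac-like sums are the same in this comparison and the one with paraxial mesoderm.

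**Figure D3:**
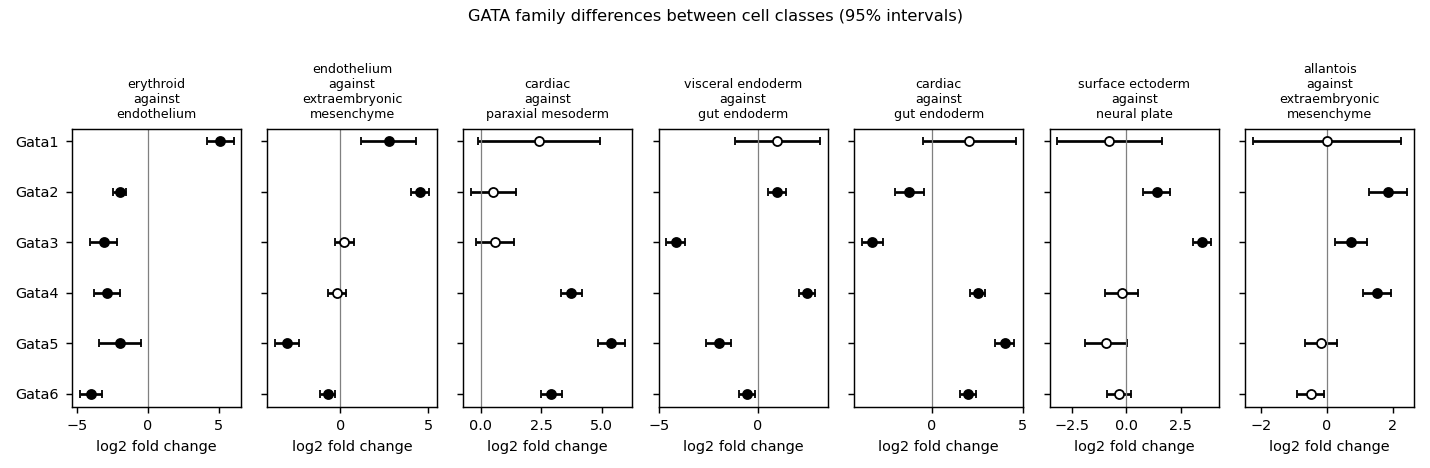
Log2 fold changes of the 6 GATA members in the 7 comparisons between classes. Each panel is a comparison, points are the edgeR estimates with 95% intervals, and filled points have an adjusted p of 0.05 or less. Gata4, Gata5 and Gata6 are all to the right of 0 in both cardiac comparisons, and Gata1 at 5.13 and Gata2 at -1.98 lie on opposite sides in the comparison of erythroid with endothelium.

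Cells of low cardiac marker score had as much Gata6 as those of high score, and less Gata4 and Gata5. The cells of the cardiac-named cluster were divided by their cardiac marker score, in ranges set after the values were seen and without a test. Below 0.25 of the gate (228 cells), Gata5 had 23.7, 24.2 and 20.6 CPM in embryos 1, 2 and 3, and above 2 times the gate (160 cells) it had 192, 162 and 161 CPM. Gata4 had 41.4, 29.4 and 31.3 CPM in the lowest range and 91.5, 72.4 and 88.3 CPM in the highest. For both genes the embryos do not overlap between these ranges. Gata6 had 342, 273 and 291 CPM in the lowest range and 312, 247 and 320 CPM in the highest, with ranges that overlap. Between 1 and 1.5 times the gate Gata6 was at 223, 208 and 258 CPM. Mef2c, a heart factor that was not among the markers, had a mean of 87.7 CPM in the lowest range and 805 ± 159 CPM in the highest.

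**Figure D4:**
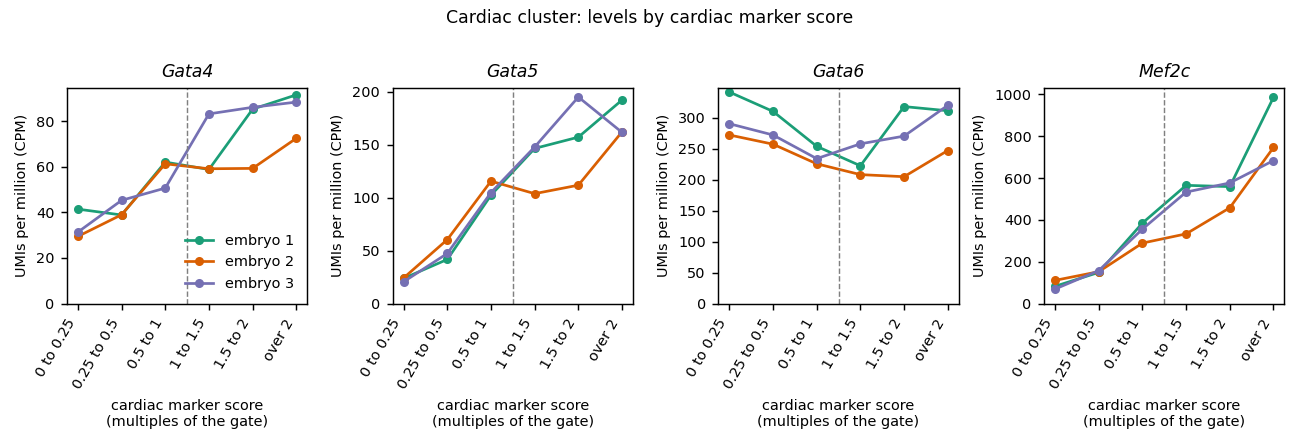
Gata4, Gata5, Gata6 and Mef2c along the cardiac marker score within the cardiac-named cluster. The horizontal axis gives ranges of the score as multiples of the gate, the vertical axis CPM on a linear scale, each line is 1 embryo and the dashed line marks the gate. Gata5 stands at 20.6 to 24.2 CPM in the lowest range and at 161 to 192 CPM in the highest, while Gata6 stands at 273 to 342 CPM and at 247 to 320 CPM.

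Many Gata6 UMIs lay outside the gated classes. Cells that passed no list were 32.4% of all cells and held 45.0% of all Gata6 UMIs. Of these UMIs, 40.7% were in 883 cells of the cardiac-named cluster, where Gata6 had 293, 254 and 259 CPM. Gata4 had 44.9 ± 3.85 CPM and Gata5 63.7 ± 2.49 CPM in these cells. A further 26.3% of these Gata6 UMIs lay in the paraxial-named clusters, which held 1907 of the 6986 cells that passed no list. There Gata6 had 47.9 CPM, below the mean of 64.5 CPM over all cells that passed no list.

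In cardiac-like cells, UMIs of Gata4, Gata5 and Gata6 occurred together about as often as the product of their shares gives. After thinning to 5000 UMIs a cell, Gata5 and Gata6 were found together in 145 cells against 144.2, Gata4 and Gata6 in 88 against 87.7, and Gata4 and Gata5 in 63 against 61.7. Before thinning, 67.6 ± 19.8% of cardiac-like cells (SD, n = 3) held UMIs of all of Gata4, Gata5 and Gata6, and after thinning 11 ± 3.6% did. In other classes some pairs stood above the product in each of the 3 embryos: Gata4 with Gata6 in gut endoderm-like cells (21 cells against 12.7), Gata3 with Gata6 in the same class (50 against 38.9), Gata4 with Gata5 in allantois-like cells (25 against 16.4), and Gata5 with Gata6 in mesenchyme-like cells (40 against 31.4). Gata5 with Gata6 stood below it in allantois-like cells (22 against 33.6) in embryos 2 and 3 but not in embryo 1, and before thinning they did not (181 against 172.4). These counts are descriptions without a test.

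Visceral endoderm-like cells were gated on genes such as Ttr, Apoa1 and Afp, which the study used to mark extraembryonic endoderm. Between them and gut endoderm-like cells, 5 of 6 members passed, beside 60.9% of all genes in either direction. Of all genes, 31.3% were higher and 29.6% lower in visceral endoderm. Gata4 had 72.3, 52.2 and 59.6 CPM in visceral endoderm-like cells (61.4 ± 10.2, SD, n = 3) and 13.6, 11.9 and 13.4 CPM in gut endoderm-like cells. The groups do not overlap (log2 fold change 2.49, SE 0.19, adjusted p = 1.71e-13). The visceral endoderm range of Gata4 overlaps that of cardiac-like cells, and by clusters in place of gates the visceral endoderm was the higher. With 37.7% of its UMIs, visceral endoderm-like cells were the class that held most Gata4, against 8.04% in the less numerous cardiac-like cells. These classes made up 11.2% and 1.99% of all cells.

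Gata3 went the other way, with 1.69, 1.82 and 1.39 CPM in visceral endoderm-like cells against 27.6 CPM or more in gut endoderm-like cells (log2 fold change -4.18, SE 0.23, adjusted p = 8.14e-17). Gata5 was also lower, at 2.03, 1.91 and 2.11 CPM against 8.05, 10.7 and 10.9 CPM (log2 fold change -1.98, SE 0.32, adjusted p = 1.53e-06). Gata2 was higher (log2 fold change 0.98, SE 0.23, adjusted p = 0.000406). Gata6 had 45.3, 27.1 and 40.3 CPM against 61.4, 71.0 and 64.0 CPM (log2 fold change -0.56, SE 0.21, adjusted p = 0.0201), a difference that did not pass without embryo 2 (log2 fold change -0.33, adjusted p = 0.325). Of the 6 endoderm partners reported here, 3 were higher in visceral endoderm-like cells, beside 31.3% of all genes. These were the liver and yolk sac factor Hnf4a at 94.7 CPM against 2.17 (log2 fold change 5.74), the adaptor gene Dab2 (4.81) and the transcription factor gene Sox7 (4.23). Embryo 1 contributed 275 visceral endoderm-like cells, and without it all 5 calls were kept.

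The allantois, which forms the vessels of the umbilical cord, was compared with the extraembryonic mesenchyme to set 2 extraembryonic mesoderm classes side by side. Of the 6 members, 3 were higher in the allantois-like cells, beside 7.08% of all genes in that direction, 9.56% in the other and 16.6% in either. Gata4 had 21.1, 32.4 and 27.8 CPM against 8.68, 7.18 and 11.6 CPM (log2 fold change 1.53, SE 0.21, adjusted p = 8.56e-07). Gata2 was higher without overlap (log2 fold change 1.86, SE 0.28, adjusted p = 5.81e-06). Gata3 passed narrowly (log2 fold change 0.74, SE 0.24, adjusted p = 0.0291) and its call was lost without any one embryo (adjusted p between 0.0678 and 0.25), with a stricter gate (0.114), with thinning (0.103) and with clusters (0.139).

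Gata6 had 63.0, 61.6 and 68.6 CPM in allantois-like cells and 91.6, 87.0 and 90.3 CPM in mesenchyme-like cells. The embryos do not overlap, and the difference missed the threshold (log2 fold change -0.50, SE 0.21, adjusted p = 0.0951) and passed with the embryo as a block (adjusted p = 0.0134). It also passed without embryo 3 (adjusted p = 0.0362), with a looser gate (0.0319), with thinning (0.0102) and with only these classes in the fit (0.0011). Gata5 had 10.6, 25.7 and 24.0 CPM against 25.2, 20.9 and 22.7 CPM, with a log2 fold change of -0.19 (95% interval -0.67 to 0.29). The mesenchyme-like sums also served in the comparison with endothelium, and 68.5% of the allantois-like cells fell in the allantois-named cluster.

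In left-right organizer-like cells, the ciliated cells the libraries were made for, no UMI of Gata1, Gata2 or Gata3 was found. There were 23, 25 and 24 such cells in embryos 1, 2 and 3, and a count of 0 allows a share of up to 13.0%, 12.0% and 12.5% of cells with a UMI. Their median depth was low, at 10248 UMIs, and 103 further cells of the organizer-named cluster that passed no list held 3 Gata1, 5 Gata2 and 15 Gata3 UMIs. Of 128 cells that passed the organizer list, 72 were in the class, and 36 also passed the caudal epiblast list, which includes T. The median caudal epiblast score of the class was 1.51 times that gate. A cell at this score stayed in the class only with fewer than 3 of those markers detected. Whether this selected cells of low depth was not tested. Gata6 had 15, 16 and 2 UMIs in the organizer-like cells, or 39.2, 62.4 and 8.03 CPM, held by 4, 3 and 1 cells. This range covers those of visceral endoderm-like and paraxial-like cells, so that its place in the order of classes is not resolved.

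Among classes of lower level, several neighbours in the order of a gene could not be separated. The Gata6 ranges of gut endoderm, allantois and endothelium overlap, with means of 65.4, 64.4 and 53.5 CPM. The Gata5 range of allantois (10.6 to 25.7 CPM) overlaps those of mesenchyme (20.9 to 25.2 CPM) and gut endoderm (8.05 to 10.9 CPM). The Gata5 ranges of mesenchyme and gut endoderm do not overlap, and within each embryo allantois was above gut endoderm. Cells that passed the cardiac and the mesenchyme list together (113 cells) had 167.6 ± 9.4 CPM of Gata6 and 115 ± 12.5 CPM of Gata5. The 114 cells that passed the surface ectoderm and mesenchyme lists together had 55.7 ± 6.6 CPM of Gata3. Some cells passed both lists of a comparison. Gata3 had 22.2 ± 1.5 CPM in 162 cells that passed the surface ectoderm and neural plate lists. In 53 cells that passed both endoderm lists, Gata3 had 19.5 ± 5.3 CPM and Gata4 55.0 ± 13.2 CPM. In 361 cells that passed the allantois and mesenchyme lists, Gata4 had 16.4 ± 5.4 CPM and Gata6 88.5 ± 8.9 CPM. Of 1432 cells that passed the mesenchyme list, 739 were in its class. Whether cells that passed several lists are doublets was not tested, and they were left out of every class.

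The GATA-finger relatives, which share a zinc finger of this type but are not of the family, were tested in the same comparisons. Of 4 tested (Trps1, Gatad1, Gatad2a and Gatad2b), 3 (Trps1, Gatad1 and Gatad2a) were higher in endothelium-like than in mesenchyme-like cells, beside 17.3% of all genes. In the other comparisons at most 1 was higher and at most 1 lower. Trps1, a transcriptional repressor, was higher in allantois-like than in mesenchyme-like cells (log2 fold change 1.69) and lower in erythroid-like than in endothelium-like cells (-1.49) and in cardiac-like than in paraxial-like cells (-0.97).

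Across the means of 13 classes, which share libraries and depth, the log2 levels of Gata4 and Gata6 correlated at r = 0.84, those of Gata5 and Gata6 at 0.81 and those of Gata4 and Gata5 at 0.75, against 0.44 for Gata1 and Gata2. These classes include germ cell-like cells (22 cells of 2 embryos), which held no UMI of Gata1, Gata4, Gata5 or Gata6. They also include the 72 organizer-like cells, with 4 UMIs of Gata4 and 1 of Gata5. How far these small classes set the correlations was not tested. Among 10593 genes outside the marker lists, those with the profiles most like Gata1 were Hba-a2, Tspan32 and Treml2 (r = 0.99 each). For Gata2 they were Zfp64 (0.93), Traf4 (0.93) and Srpr (0.91), and for Gata3 Tcerg1l (0.85), Tmem39a (0.83) and Ctgf (0.81). For Gata4 they were Ly75 (0.93), Plekha6 (0.90) and Mum1l1 (0.90), for Gata5 Carmn (0.93), Rbm20 (0.92) and Flrt2 (0.91), and for Gata6 Spon1 (0.95), Nrp1 (0.94) and Ssr3 (0.94). These correlations are over class means and carry no test.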

How the data were processed

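Single-cell suspensions of 3 embryos were sequenced with the 10x Genomics 3′ v3 chemistry. The deposited files hold UMI counts per gene and cell, which the authors made with Cell Ranger 3.1.0 on mm10. Cells with over 8500 genes (7500 in embryo 2), under 1500 genes, over 10% or under 0.5% mitochondrial UMIs were left out; the last filter stands for low-quality clusters removed by the study. Depth after filtering was 5795 to 7956 cells and 144790573 to 191843539 UMIs per embryo; intervals and limits from a count of 0 cover counting error only. A gate was 0.5 of the 99th percentile of a list's score (99.8th for the organizer and germ cells). Scrublet, run in scanpy 1.11.5 (Python 3.11.15), called 0, 1 and 1 cells, so it did not work as a doublet filter; cells passing several lists were left out, and removing the top 6% of scores was an alternative. Counts were summed per class and embryo (at least 10 cells) and fitted over all classes in edgeR 4.0.16 (R 4.3.3) with TMM scaling, so fitted fold changes need not equal ratios of mean CPM. The filter on low counts also ran over all classes. A member could therefore pass it through a class outside a comparison, where its level is high. The fit was also run on simulated sums, drawn independently with no effect shared by an embryo. That run could not check how pairing by embryo acts on the calls. A threshold of 0.05 was set on adjusted p. The fit had no embryo term. Sums of the same number come from the same embryo, which pairs them; their deviations from class means correlated at 0.0313 to 0.388 over 20 pairs.

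The members and lists were chosen with earlier results of these data known. All 6 members were named throughout; of a partner list, up to 4 passing genes with the largest change were named (1 listed endoderm partner is not reported here), and per member the 3 genes most alike among those with at least 10 CPM in a class. Alternatives were DESeq2 1.42.0, RLE scaling, no count filter, an embryo block, the 2 classes alone, leaving out each embryo, stricter (0.6) and looser (0.4) gates, thinning to 5000 UMIs, keeping cells of low mitochondrial share, and clusters (2000 variable genes, 30 components, resolution 1) in place of gates. Positions are those of GENCODE M21 on GRCm38. Of the 6 members, 4 matched the RefSeq promoter table; Gata4 and Gata6 did not. No protein sequences were used here.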

Additional observations from a re-analysis of the deposited data

How the results depend on the processing

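Each of the 7 comparisons gave 6 member results, or 42 in all. Of these, 42 kept direction and side of the threshold with RLE scaling, with the top Scrublet scores removed and with cells of low mitochondrial share kept, 41 with DESeq2, 38 with no filter on low counts and 34 of the 35 tested with only the classes compared in the fit. Fewer did under other settings: 39 with a looser gate, 37 with a stricter gate, 35 with thinning (calls lost for Gata5 in erythroid against endothelium and Gata3 in allantois against mesenchyme), 35 without each of the embryos in turn, and 32 with clusters. With the embryo as a replicate block 39 of 42 did: Gata1 in cardiac-like cells against paraxial mesoderm (adjusted p = 0.00915) and against gut endoderm (0.0196) and Gata6 in allantois against mesenchyme (0.0134) then passed, and the block changed no other call. Leaving out 1 embryo at a time gave 2 to 4 members called for endothelium against mesenchyme (2 without embryo 2) and 3 to 4 for cardiac against paraxial mesoderm. It gave 4 to 5 for visceral against gut endoderm and 4 to 6 for cardiac against gut endoderm. The counts were 1 to 2 for surface ectoderm against neural plate (1 without embryo 3) and 2 to 3 for allantois against mesenchyme. For erythroid against endothelium, leaving out embryo 2 or 3 leaves a single erythroid-like sum, so its counts are not given. The tallies of 35 without embryo 2 and without embryo 3 include those fits. In the fits with only the classes compared, the results not among the 35 tested were removed by the filter on low counts. The sign turned only for members that had not passed, with log2 fold changes as follows: for endothelium against mesenchyme, Gata4 -0.41 to 0.21 as each embryo was left out in turn, positive without embryo 3, and Gata3 -0.036 with a stricter gate and -0.10 with clusters; for cardiac against paraxial mesoderm, Gata3 -0.14 (without embryo 1) to 1.04 as each embryo was left out and -0.26 with clusters and Gata2 -1.24 with thinning; for visceral against gut endoderm, Gata1 -0.39 with thinning; for surface ectoderm against neural plate, Gata4 -0.48 to 0.15 as each embryo was left out (0.15 without embryo 1), 0.15 with a looser gate and 0.91 with clusters, Gata6 0.11 with a stricter gate and 1.56 with clusters, and Gata5 0.37 with thinning and 1.08 with clusters; for allantois against mesenchyme, Gata1 -0.45 to 0.23 as each embryo was left out (0.06 and 0.23 without embryos 1 and 2) and 0.25 with thinning, and Gata5 -0.47 to 0.13 as each embryo was left out (0.13 without embryo 1), 0.10 with a stricter gate and 0.49 with clusters. The cause of these turns was not tested. Thinning, which leaves fewer UMIs, called 2473 against 4930 genes for endothelium against mesenchyme, 1458 against 2544 for cardiac against paraxial mesoderm, 2710 against 5070 for cardiac against gut endoderm, 1192 against 2335 for surface ectoderm against neural plate and 1074 against 2397 for allantois against mesenchyme. Fewer genes were also called without embryo 2 for allantois against mesenchyme (1224), and without embryo 1 for cardiac against paraxial mesoderm (1683) and surface ectoderm against neural plate (1516). The same held without embryo 3 for surface ectoderm against neural plate (1451) and for allantois against mesenchyme (1359), while clusters called 3916 for surface ectoderm against neural plate. With a stricter or looser gate and with the top Scrublet scores removed each member kept its highest class, and with clusters all but Gata4 did, whose visceral endoderm came first (59.5 CPM). Of 18 levels of 20 CPM or more, clusters moved 6 by more than the SD between embryos. Thinning to 5000 UMIs moved 17 of 18 shares of positive cells.

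With 2 to 3 sums a class, members at a few UMIs, such as Gata1 outside blood or any member in the organizer, were at the limit of these counts.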
